A study of Drosophila melanogaster with 3 samples.

Results

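The peaks described here are 2694 of 5986 YL-1 binding sites (45.01%, exact binomial 95% interval 43.7% to 46.3%) whose summit lay at the main promoter of a single protein-coding gene. A peak was counted when its summit was within 250 bp of the annotated transcription start sites (TSSs) of exactly 1 protein-coding gene and within 250 bp of the most upstream TSS of that gene, called its main TSS. The 2694 peaks marked 2484 genes. Chromatin immunoprecipitation and sequencing had been carried out on whole Drosophila melanogaster embryos, collected 0 to 24 h after laying as a mixed-sex pool, from a transgenic line that stably expresses YL-1 with GFP fused to its C terminus. The labels describe the precipitation as one with an antibody against GFP, while their antibody field names YL-1, and sonication gave fragments of 200 to 800 bp. There were 3 biological replicates of this 1 group and no second condition. Control libraries were not analysed here, and whole embryos give no view of single tissues. The promoter that drives the transgene was not given in the sources used here.

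YL-1 belongs to the Domino/Tip60 chromatin complexes. They exchange histone H2A for the variant H2Av, which is concentrated in the first nucleosomes downstream of active start sites, and they acetylate histones. YL-1 is known as the subunit that binds the H2Av-H2B dimer. Drosophila start sites are often grouped by the short sequence elements around them. The DNA replication-related element (DRE, bound by DREF), Motif 1 (bound by M1BP), Motif 6 and Motif 7 are typical of broadly expressed genes. The TATA box, bound by the TATA-binding protein, and the Initiator are typical of genes with restricted expression.

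The sequences below show promoters with strong peaks that hold a named element, followed by the promoters with the strongest and next strongest of these peaks, which hold none of DRE, Motif 1, Motif 6 or Motif 7. Each is 150 bases of the gene's strand in dm6, 5′ to 3′, with the main TSS at base 121, from the RefSeq copy of the Release 6 assembly. Capitals mark consensus matches on either strand to DRE, Motif 1, Motif 6, Motif 7, the E-boxes and the Pho site, and matches to the other elements searched were left in lower case. CycT, whose product is the cyclin partner of P-TEFb (3L:17557759-17557908, minus strand), has a DRE centred 45.5 bp before the TSS and a Pho site 63.5 bp before it. Smg6, encoding a nonsense-mediated decay factor (3R:25033436-25033585, minus strand), has a pair of Motif 1 matches on either side of the TSS. RpL27A, a large-subunit ribosomal protein gene (2L:4458335-4458484, minus strand), has Motif 6 next to the TSS and Motif 1 centred 20 bp after it. RpS3, a small-subunit ribosomal protein gene (3R:23358692-23358841, plus strand), has Motif 6 centred 30.5 bp before the TSS. RpS21, likewise of the small subunit (2L:2855950-2856099, plus strand), has a pair of CAGCTG E-boxes. Mnn1, encoding menin (2L:7056181-7056330, plus strand), has a CACGTG E-box centred 9.5 bp after the TSS. The last pair are CG14100 (3L:19590495-19590644, minus strand) and Ugalt, encoding a UDP-galactose transporter (X:2703823-2703972, minus strand).
CycT: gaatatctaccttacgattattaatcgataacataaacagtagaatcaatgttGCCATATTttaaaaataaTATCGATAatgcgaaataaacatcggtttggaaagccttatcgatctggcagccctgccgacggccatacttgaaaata
Smg6: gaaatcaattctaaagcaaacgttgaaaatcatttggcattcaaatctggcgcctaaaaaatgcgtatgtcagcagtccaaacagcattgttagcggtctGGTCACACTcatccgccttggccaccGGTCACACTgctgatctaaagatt
RpL27A: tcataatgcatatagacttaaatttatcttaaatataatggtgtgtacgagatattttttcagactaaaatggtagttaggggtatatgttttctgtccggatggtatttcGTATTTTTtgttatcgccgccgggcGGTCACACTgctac
RpS3: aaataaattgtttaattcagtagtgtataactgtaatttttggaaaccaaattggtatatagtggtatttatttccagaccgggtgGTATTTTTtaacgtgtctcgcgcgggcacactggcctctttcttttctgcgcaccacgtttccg
RpS21: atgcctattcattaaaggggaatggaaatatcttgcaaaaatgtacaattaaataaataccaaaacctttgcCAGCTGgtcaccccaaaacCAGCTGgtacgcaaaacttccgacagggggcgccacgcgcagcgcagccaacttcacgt
Mnn1: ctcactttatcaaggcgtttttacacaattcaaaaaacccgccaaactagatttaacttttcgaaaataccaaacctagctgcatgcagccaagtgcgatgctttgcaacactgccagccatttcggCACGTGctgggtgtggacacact
CG14100: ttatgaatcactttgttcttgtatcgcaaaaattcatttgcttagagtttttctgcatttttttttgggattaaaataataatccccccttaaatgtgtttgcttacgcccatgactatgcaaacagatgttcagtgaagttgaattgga
Ugalt: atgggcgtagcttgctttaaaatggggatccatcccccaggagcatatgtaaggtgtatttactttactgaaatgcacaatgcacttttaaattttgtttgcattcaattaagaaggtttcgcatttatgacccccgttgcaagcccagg

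Single-gene main promoters were the largest class of peaks. Promoters of 2 or more genes held 1151 peaks, internal promoters (a single gene, but farther than 250 bp from its main TSS) held 526, and 1615 peaks lay farther than 250 bp from every protein-coding TSS. In the replicates, each taken as its 5986 strongest regions, the main promoter class held 2686, 2623 and 2548 regions, or 2619 ± 69.1 (SD, n = 3). All peak counts refer to the authors' list thresholded by the irreproducible discovery rate (IDR). It came from pooled libraries and is not a further replicate. The files hold no read counts, so depth is unknown, and the SD measures only the spread between these samples. All binomial intervals cover counting error only.

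Of 13945 protein-coding genes, 17.8% had a peak of this kind, and 30.6% had any IDR summit within 250 bp of the main TSS. A peak of this kind was present at 1447 of the genes in the IDR list and in all 3 replicates. Most genes had 1 such peak, and 210 had 2, with a median gap between the summits of 203.5 bp. In 13 cases both summits belonged to a region listed 2 times with the same ends. Among the 210 genes, RpL11, RpS21, Mnn1, RpL13A and RpL6 are given only as examples with strong peaks. Their stronger peaks had signals of 857, 848, 788, 744 and 637, and their weaker ones 237, 335, 478, 271 and 313. At Mnn1 the summits lay 19 and 221 bp downstream of the TSS, and at RpL6 52 bp downstream and 166 bp upstream. A further 97 genes also had a peak at an internal promoter. A TSS of an annotated non-coding gene or element lay within 250 bp of the summit for 78 members (2.90%).

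The members were found in the replicates about as often as internal promoter peaks and less often than peaks at 2 or more genes. Of the members, 2011 (74.6%) overlapped one of the strongest 5986 regions in all 3 replicates, 527 in 2, 154 in 1 and 2 in 0. The share in all 3 was 86.1% for peaks at 2 or more genes, 74.0% for internal promoters and 57.0% for peaks away from a TSS. Within the members it fell from 99.7% of the strongest 674 by signal to 36.5% of the weakest 674. Across members, signal correlated between pairs of replicates with a mean Spearman coefficient of 0.649, against 0.675 for the other peaks. These coefficients describe peaks of the same libraries, which are not independent replicates.

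Peaks at single-gene main promoters were weaker than those shared by several genes and stronger than those away from start sites. The signal is the authors' own value per region and its scale differs between libraries, so ratios were formed within each list. The IDR median was 219.2 for the members (quartiles 172.6 and 286.2, range 137.2 to 1346), 265.8 at 2 or more genes, 211.6 at internal promoters and 189.2 away from a TSS. The ratio of the members to peaks at 2 or more genes was 0.813, 0.856 and 0.831 in replicates 1, 2 and 3, and 0.825 in the IDR list. Against peaks away from a TSS it was 1.18, 1.16 and 1.16 in the same order, and 1.16 in the IDR list. All replicates lay on the same side of 1 in both comparisons. The exact two-sided sign-flip permutation test over 3 replicates gave p = 0.25 for each, which is the smallest value it can give, so no ratio here can pass 0.05.

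The ratio to internal promoters was close to 1, at 1.06, 1.03 and 1.03 in the replicates. Against all other peaks together it was 1.04, 1.05 and 1.02 in the replicates and 1.01 in the IDR list, a difference whose direction turned under 5 of the kinds of setting tried. With the IDR peaks in 10 groups by signal, the class made up 38.2% of the strongest group, 50.2% of group 5 and 41.4% of the weakest. Over the same groups, peaks at 2 or more genes fell steadily from 32.7% to 7.35%. Members were thus most frequent in the middle of the signal range.

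**Figure D1:**
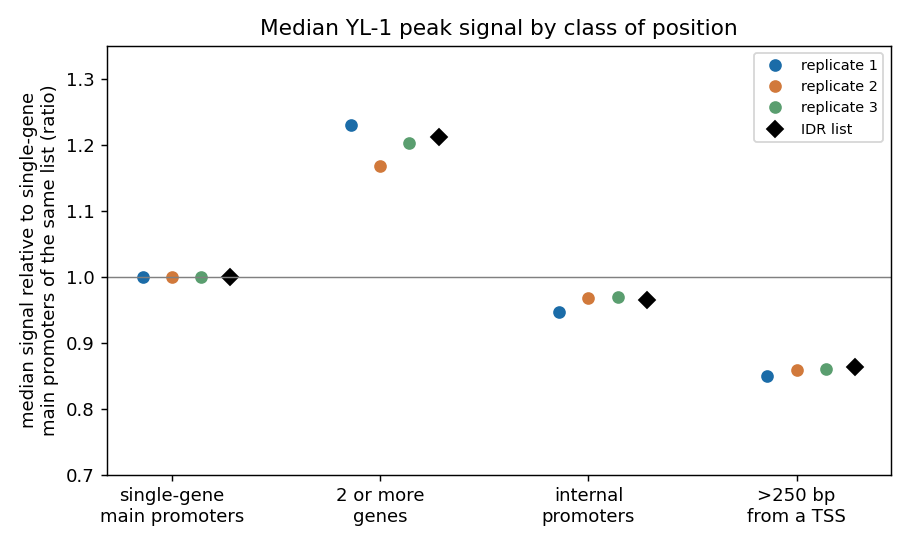
Median signal of each class of YL-1 peak divided by that of peaks at single-gene main promoters in the same list (y axis, ratio, linear and not starting at 0). Circles are the 3 replicates and diamonds the IDR list. Peaks at 2 or more genes lie above the line at 1 in every list and peaks away from a TSS lie below it.

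The summit positions were limited to 250 bp on each side of the main TSS by the choice of members, so they are given as a description. The median position was 30.5 bp downstream (quartiles 29 bp upstream and 107.75 bp downstream), and 62.4% of the summits lay downstream. In replicates 1, 2 and 3 the median was 38, 43 and 21 bp downstream, or 34 ± 11.5 (SD, n = 3). With the limit at 100 bp the median was 3 bp downstream, and with 500 bp it was 48 bp. A summit was more than 50 bp downstream for 42.4% of members and more than 50 bp upstream for 17.9%. For 74.5% of members the summit was the middle of the listed region, and these had a median of 33 bp, against 25 bp where the summit lay elsewhere.

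The summit position varied with the annotation and with the strand of the gene. The median was 18.5 bp downstream at the 1886 members whose gene has 1 annotated TSS and 68.5 bp at the 808 whose gene has 2 or more. In the replicates these were 21.3 ± 10.8 and 68.3 ± 13.3 bp (SD, n = 3). Genes on the plus strand had a median of 40 bp and genes on the minus strand 19 bp. The plus-strand median was higher by 22, 31 and 20 bp in the 3 replicates. The cause of this difference between strands was not tested. The mean of both strands was 29.5 bp downstream. Signal and position went little together, since the strongest 674 members had a median of 32.5 bp and the weakest 674 one of 38 bp.

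**Figure D2:**
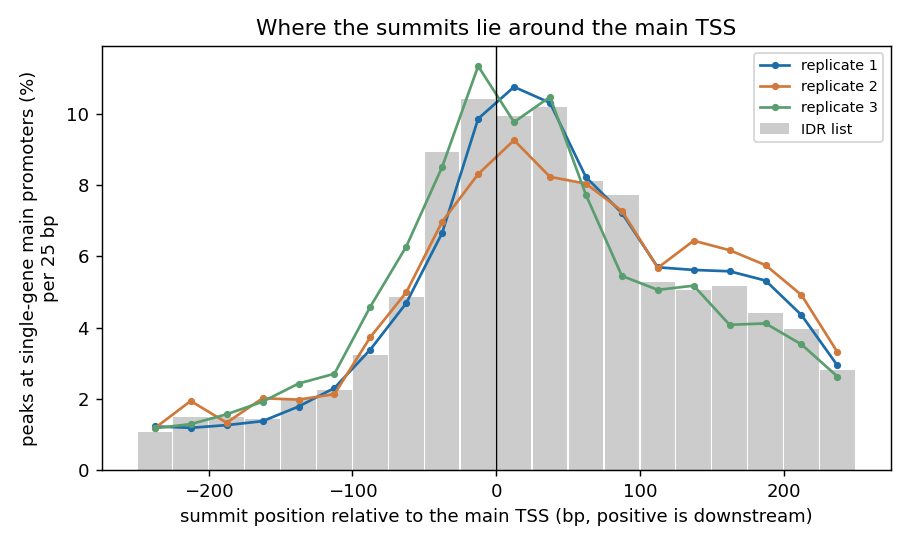
Distribution of summit positions around the main TSS for peaks at single-gene main promoters (x axis, bp along the gene's strand, y axis, percent of these peaks per 25 bp). Bars are the IDR list and lines the 3 replicates. The bars are highest from 25 bp upstream to 50 bp downstream and fall off more slowly on the downstream side.

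The strongest members were at genes of many functions. The 12 with the highest signal were CG14100, Ugalt, CycT, Sirt1, Hsp83, CG18549, RpL11, Tina-1, RpS21, Alg3, mRpL41 and RpS29, and each overlapped one of the strongest regions in all 3 replicates. CG14100 had the highest signal, 1346, which is 6.16 times the median of all IDR peaks and rank 2 of them. Its region (3L:19590435-19590824) had signals of 314, 273 and 760 in replicates 1, 2 and 3, and ranked 6, 12 and 1. Ugalt (X:2703682-2704082) had 332, 332 and 680, with ranks of 4, 4 and 3. The CG14100 summit was 110 bp upstream of the TSS and that of Ugalt 43 bp upstream.

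CycT (3L:17557238-17557955) had signals of 352, 288 and 425 in the 3 replicates and an IDR rank of 9, with the summit 117 bp downstream of its TSS. Sirt1, encoding an NAD-dependent deacetylase (2L:13165381-13166041), had 331, 308 and 403, with the summit 200 bp downstream. Hsp83, encoding the Hsp90 chaperone (3L:3192930-3193306), had 308, 263 and 298 and ranked 7, 15 and 112 in the replicates. These 3 peaks thus ranked higher in replicates 1 and 2 than in replicate 3. The ribosomal protein genes RpL11, RpS21 and RpS29 had IDR signals of 857, 848 and 793. The mitochondrial ribosomal protein gene mRpL41 had 833 and Alg3, encoding a mannosyltransferase of N-glycan assembly, had 841. For mRpL41 the replicate signals were 208, 162 and 465, and for Tina-1 they were 216, 165 and 466. For both genes the rank was 14 or better in replicate 3 and between 59 and 137 in replicates 1 and 2.

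Of the 100 strongest IDR peaks, 32 were members. The promoters printed above had signals of 744 (Smg6), 711 (RpL27A), 711 (RpS3) and 788 (Mnn1). Smg6 had 196, 214 and 338 in the replicates, and RpS3 had 248, 133 and 334, with ranks of 29, 322 and 73. The members closest to the distance limit were E23, encoding an ABC transporter (250 bp upstream, signal 533), SsRbeta, encoding a translocon-associated protein (250 bp downstream, signal 175), and Liprin-beta (250 bp downstream, signal 163). Just outside it were Tsp42El (251 bp upstream, signal 381), ATPsynO (251 bp downstream, signal 300) and Mcm2 (251 bp upstream, signal 255). YL-1 itself was no member, since the TSS of Tmem214 lies 168 bp from its own and the summit, with a signal of 637, was in the window of both.

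The share of main promoters with a peak depended on how close the next gene started. Among 9731 isolated main promoters, with no TSS of another protein-coding gene within 500 bp, 1809 (18.6%) had a peak, and every such peak met the single-gene rule. Among the other 4214, 2459 (58.4%) had a summit within 250 bp. In the replicates the shares were 17.8% ± 0.645 and 56.1% ± 2.03 (SD, n = 3), so the groups did not overlap. Close promoters share their windows, and a summit between them counts for both genes. Beyond 500 bp no window is shared, and the share was 23.1% with a neighbour at 501 to 1000 bp, 20.7% at 1001 to 2000 bp, 20.2% at 2001 to 5000 bp and 10.9% farther away. The replicate values at the ends of that range were 22.5% ± 0.655 and 10.9% ± 0.875 (SD, n = 3).

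The orientation of the neighbour went with the share as well. Where the nearest other start site was 501 to 1000 bp away, upstream and on the opposite strand, as in a divergent pair, 316 of 1095 main promoters (28.9%) had a peak, with 27.9% ± 0.868 in the replicates (SD, n = 3). The share was 52 of 311 (16.7%) with an upstream neighbour on the same strand, 6 of 61 (9.84%) with a downstream neighbour on the opposite strand and 12 of 207 (5.80%) with a downstream neighbour on the same strand. Divergent pairs thus had the highest of the 4 shares. Over all isolated promoters the divergent class stood at 19.9% and the upstream same-strand class at 21.8%, and the downstream same-strand class was lowest at 10.5%.

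**Figure D3:**
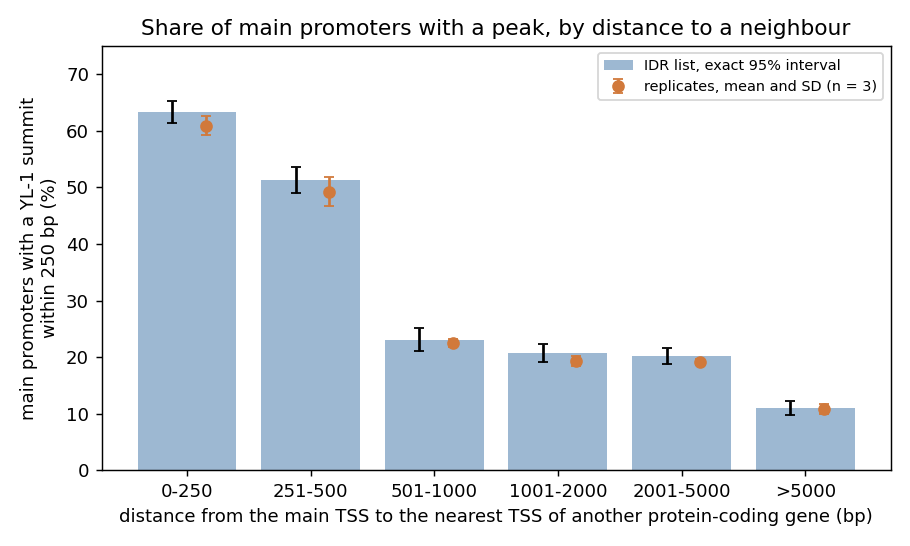
Percent of main promoters with a YL-1 summit within 250 bp (y axis) by distance to the nearest TSS of another protein-coding gene (x axis, bp). Bars show the IDR list with exact 95% binomial intervals, and points with error bars show the mean and SD of the 3 replicates. The share falls from 63.3% at 0 to 250 bp to 23.1% at 501 to 1000 bp and 10.9% beyond 5000 bp.

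Marked genes were longer than unmarked ones and started in sequence of lower GC content. The median gene length was 3000 bp for the 2484 genes, 1952 bp for the 7922 isolated main promoters without an IDR peak and 2166 bp for all protein-coding genes. A single annotated TSS was present at 69.8% of the marked genes and 76.7% of the unmarked. The median GC content from 250 bp before to 50 bp after the TSS was 35.3%, 39.7% and 38% in the same order. Of the unmarked promoters, 1835 (23.2%) held a weaker region of the longer pooled list that did not pass the IDR threshold, so unmarked means below that threshold.

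The arms held similar shares. Among isolated main promoters a peak was present at 18.0% on X, 18.3% on 2L, 18.9% on 2R, 19.4% on 3L and 18.1% on 3R. On chromosome 4, which is small and largely heterochromatic, it was 18 of 66, or 27.3% (95% interval 17.0% to 39.6%), an interval that includes the shares of the other arms. The 21 members on chromosome 4 had a median summit 124 bp downstream, against 22 to 39 bp on the other arms. The strongest of them was at RpS3A, encoding a ribosomal protein, with a signal of 553.

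Elements of broadly expressed promoters were more frequent at the members. Consensus matches were sought from 250 bp before to 50 bp after the main TSS on both strands, for DRE (TATCGATA), the cores of Motif 1 (GGTCACACT), Motif 6 (GTATNTTT) and Motif 7 (CATCNCTA) and other elements. DRE was present at 469 of 2484 marked genes (18.9%), at 275 of 7922 isolated promoters without a peak (3.47%) and at 9.36% of all main promoters. In the replicates the share with a peak was 18.8% ± 0.428 and that without 3.66% ± 0.109 (SD, n = 3). Motif 1 was present at 14.7%, 1.33% and 6.05% of these sets, a ratio of 11.1 between marked and unmarked promoters. Motif 6 was present at 22.9%, 10.9% and 14.9%, and Motif 7 at 11.96%, 2.73% and 6.42%. Peaks at promoters of 2 or more genes, which are most like the members, had these elements too. Genes with such a peak held DRE at 20.7%, Motif 1 at 15.7%, Motif 6 at 19.5% and Motif 7 at 15.01% of main promoters, so the elements are not particular to single-gene promoters. At least 1 of the 4 was present at 53.3% of the marked and 16.6% of the unmarked promoters. Among the 1809 isolated marked promoters alone, DRE was present at 18.9% and Motif 1 at 14.9%. A match is a description of the sequence, not proof of a bound site, and the replicate SD reflects only changes in which promoters have a peak.

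The same relation was seen from the side of the promoters. Among isolated main promoters, 341 of 616 with DRE (55.4%), 270 of 375 with Motif 1 (72.0%), 401 of 1264 with Motif 6 (31.7%) and 204 of 420 with Motif 7 (48.6%) had a peak. Where both DRE and Motif 1 were present it was 39 of 47 (83.0%, 95% interval 69.2% to 92.4%). Where none of the 4 was present it was 869 of 7478 (11.6%). In the replicates the share was 52.5% ± 1.40 with DRE, 67.3% ± 0.857 with Motif 1 and 11.3% ± 0.801 with none (SD, n = 3). The gaps between these were many times the spread between replicates, which reflects only changes in which promoters have a peak. That spread does not measure the error of a difference between groups of promoters. Even so, 869 of the 1809 isolated promoters with a peak held none of the 4 elements.

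The TATA box and the Initiator showed the opposite pattern where they stood at their usual place. A TATA box (TATAAA) that began 45 to 15 bp before the TSS on the gene's strand was present at 51 marked promoters (2.05%), 1014 unmarked ones (12.8%) and 9.14% of all. In the replicates it was 2.25% ± 0.00903 of the marked and 12.6% ± 0.0724 of the unmarked promoters (SD, n = 3). Anywhere in the window and on either strand, TATAAA was present at 48.0% and 44.6%, so the gap was seen at the usual place and hardly over the whole window. Genes with a peak shared by 2 or more genes had it at 1.55%. An Initiator core (TCAGT) within 10 bp of the TSS on the gene's strand was present at 5.72% of marked and 16.6% of unmarked promoters, and at 12.2% of all. Anywhere in the window and on either strand, TCAGT was present at 43.2% and 56.3%. Unlike that of TATAAA, its gap was thus also seen over the whole window. Only 35 of 1049 isolated promoters with a TATA box at its place (3.34%) had a peak, and 112 of 1428 with an Initiator at the TSS (7.84%).

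**Figure D4:**
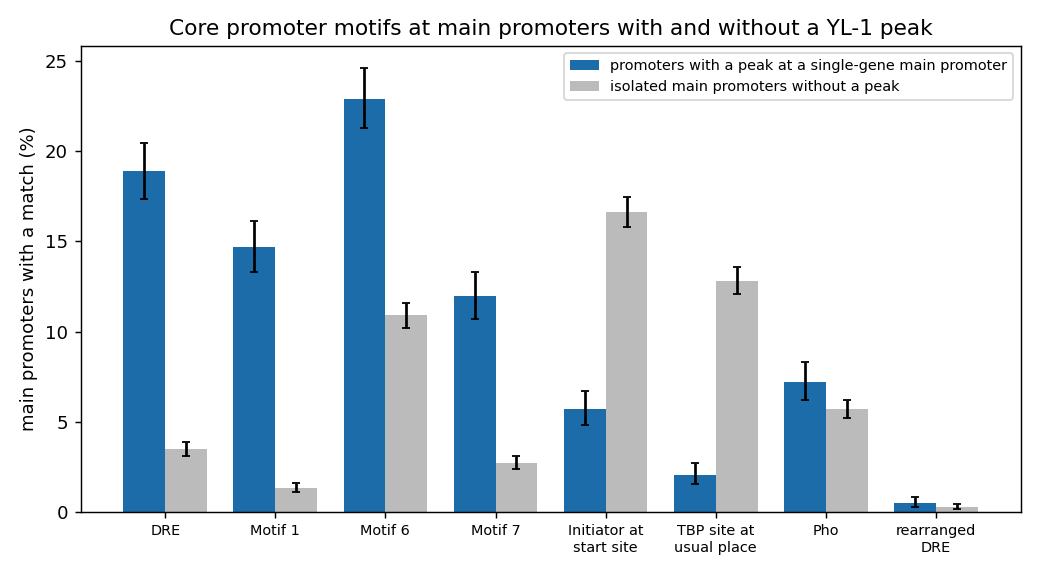
Percent of main promoters with a match (y axis) for promoters with a peak at a single-gene main promoter (blue, 2484 genes) and isolated main promoters without a peak (grey, 7922 genes), with exact 95% binomial intervals. TBP site stands for the TATA box on the gene's strand. DRE, Motif 1, Motif 6 and Motif 7 are higher with a peak, and the Initiator and the TATA box at their places are lower.

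GC content moved with these shares, and the motif differences were present at each level of it. Isolated promoters were put in 3 groups of similar size by GC content, and the share with a peak was 26.1% at low, 22.4% at middle and 6.98% at high GC content. With DRE the shares were 52.4%, 60.6% and 58.5% in that order, and without it 22.8%, 19.9% and 6.32%. With Motif 1 they were 70.5%, 71.9% and 81.1%, and without it 23.1%, 20.4% and 6.12%. The high group held only 41 promoters with DRE and 37 with Motif 1. With a TATA box at its place the shares were 7.75%, 3.31% and 0.871%, against 27.6%, 24.7% and 7.99% without one.

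Most of the remaining elements differed less in percentage points. The CAGCTG E-box was present at 20.2% of marked and 13.7% of unmarked promoters, and at 31.3% of the promoters of genes with a peak shared by 2 or more genes. The CACGTG E-box was present at 4.39% and 3.77%, the Pho site (GCCATNTT) at 7.21% and 5.69%, the pause button (CGGACG) at 5.15% and 6.35%, and a rearranged DRE (TAGTACTA), a control for base composition, at 0.483% and 0.265%. GAGAG, the core of the GAGA factor site, was less frequent with a peak, at 22.4% against 34.3%. In percentage points this gap was about as large as that of Motif 6. Over all main promoters the shares of these 6 were 17.7%, 4.202%, 5.94%, 5.64%, 0.308% and 29.7%, in the order given here. The shares of the rearranged DRE rest on only 12 marked and 21 unmarked promoters.

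Matches to DRE, Motif 1 and Motif 7 lay near the TSS both with and without a peak. The centre of DRE had a median of 40.5 bp upstream at the members and 47.5 bp upstream at unmarked promoters, and 70.6% and 69.7% of the matches lay within 100 bp upstream. The median of Motif 1 was 1 bp downstream with a peak and 6 bp upstream without. That of Motif 7 was 21.5 bp upstream with a peak and 33.5 bp upstream without. Motif 6 had a median of 72.5 bp upstream with a peak and 109.5 bp upstream without. The median of the CACGTG E-box was 17.5 bp downstream with a peak and 110.5 bp upstream without, as in the Mnn1 promoter above, where it stands after the TSS. The CAGCTG E-box stood at 22.5 bp upstream with a peak and 75.5 bp upstream without. TATAAA anywhere in the window had a median of 146.5 bp upstream with a peak and 103.5 bp upstream without.

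**Figure D5:**
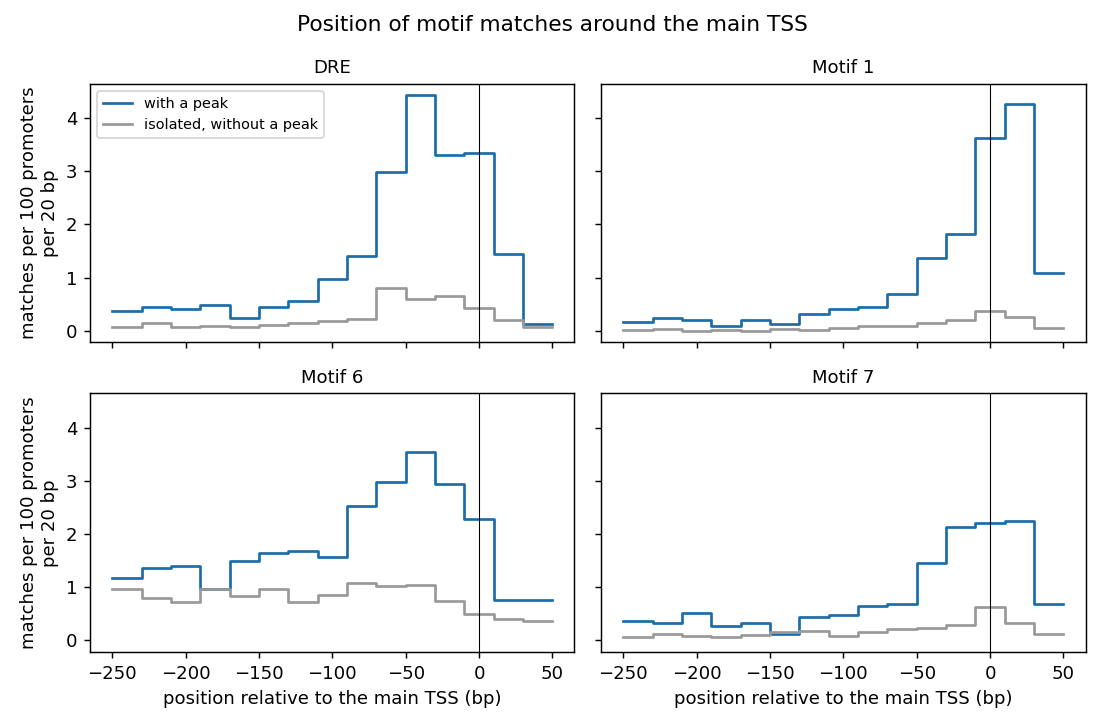
Matches per 100 promoters in 20 bp steps (y axis) by position relative to the main TSS (x axis, bp along the gene's strand) for promoters with a peak at a single-gene main promoter (blue) and isolated promoters without one (grey). The DRE bars are highest 50 to 30 bp upstream, at 4.43 per 100 promoters, and those of Motif 1 are highest 10 to 30 bp downstream, at 4.27.

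Among the members, the median signal differed little with and without DRE, Motif 1, Motif 6 or Motif 7. All members had passed the IDR threshold, so weaker regions were not part of this comparison. Members with DRE had a median signal 1.02 times that of members without it, and the replicate ratios were 1.09, 1.04 and 1.01. The ratio was 1.01 for Motif 1, 1.04 for Motif 6 and 0.985 for Motif 7 in the IDR list. The share of genes with DRE was 20.5% among the strongest 674 members and 17.7% among the weakest 674. The highest ratios among the 12 elements were those of the CACGTG E-box at 1.14, with 1.22, 1.07 and 1.09 in the replicates, and the Pho site at 1.11, with 1.15, 1.10 and 1.08. For both, all 3 replicates were above 1 and the exact sign-flip permutation test gave its smallest value, p = 0.25, with no adjustment over the 12 elements. The test gave the same value for DRE and Motif 6, also above 1 in all replicates. It did so too for Motif 7, the CAGCTG E-box, GAGAG and the rearranged DRE, which were below 1 in all replicates. In the IDR list the rearranged DRE, present at only 12 marked genes, had a ratio of 1.02, above 1. For peaks found in all 3 replicates, the ratio was 1.06 for the CACGTG E-box and 1.10 for the Pho site.

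Lists of housekeeping machinery held many members. Of 16 COPI and COPII coat genes, which form vesicles between the endoplasmic reticulum and the Golgi, 12 (75%) had a peak at a single-gene main promoter, against 17.8% of all genes, and 14 had any summit there. They were led by CG9175 (signal 460), which matched an older symbol of the list, and by Sec24AB (429) and Sec24CD (406), encoding cargo adaptors of COPII. In the replicates 11, 12 and 12 of the 16 were members. Endosomal sorting genes held 14 of 22 (63.6%), led by Vps20 and Vps28, of the ESCRT complexes, and Vps35, of the retromer. Autophagy genes held 13 of 23 (56.5%), led by Atg9, Atg14 and ref(2)P, encoding the p62 receptor. The replicate shares were 56.1% ± 11.4 and 43.5% ± 4.35 (SD, n = 3).

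Other cell-wide lists had shares between 31.7% and 42.1%. RNA polymerase I and III genes held 8 of 19 members, led by Polr1E and Polr3E, and peroxisome genes 6 of 15, led by Pex3 and Pex13. Exosome and mRNA decay genes held 9 of 26, led by Upf2, of nonsense-mediated decay, and Not3, of the CCR4-NOT deadenylase. Rab GTPase genes held 9 of 27, led by Rab1 (signal 409), Rab6 (377) and Rab11 (297), and ubiquitin and cullin genes 12 of 36, led by lwr, encoding the SUMO-conjugating enzyme. Conserved protein kinases held 13 of 41, led by hpo, the Hippo kinase (signal 411), msn (387) and Cdk2 (341). The rule for members hides many further peaks at these genes, since a close neighbour removes them. With any summit near the main TSS counted, the shares were 16 of 19, 12 of 15, 18 of 26, 17 of 27, 22 of 36 and 27 of 41 in this order, against 30.6% of all genes.

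Nuclear pore genes held 5 of 25 members (20%) and mitochondrial import genes 4 of 21 (19.0%), both close to the share over all genes. The pore list had peaks at Nup214 (signal 250), Nup54 (216) and Nup43 (166) among others. Any summit near the main TSS was present at 14 of its 25 genes (56%), against 30.6% of all genes. Only 10 of the 25 main promoters were isolated. The import list was led by Roe1, encoding the mitochondrial GrpE, Tom70 and Tim9a, and 6 of its 21 genes (28.6%) had any summit. Leaving out a replicate here meant keeping only the IDR peaks found in both others. With replicate 1, 2 or 3 left out, the pore share was 4%, 12% and 4%. With replicate 1 or 3 left out, the RNA polymerase I and III share was 21.1%. The endosomal share was 40.9% with replicate 1 left out, and the peroxisome share 26.7% with replicate 3 left out. For peaks found in all 3 replicates, these shares were 4%, 21.1%, 40.9% and 26.7% in the same order. With replicate 2 left out, the RNA polymerase I and III share was 31.6%, the endosomal share 50% and the peroxisome share 33.3%. The cause of these moves was not tested. The list shares also depended on the window. With 500 bp, which removes more genes with a neighbour, they were 13.3% for peroxisome, 23.1% for exosome and decay, 9.52% for mitochondrial import, 12% for nuclear pore and 50% for COPI and COPII genes. With 100 bp the kinase share was 19.5%.

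No member was at a gene of restricted function in the 3 lists examined. None of 41 ion channel and receptor genes, 29 serpin genes or 27 Jonah and trypsin protease genes had one, against 17.8% of all genes. None had any IDR summit within 250 bp of the main TSS either, against 30.6% of all genes. These lists too were chosen with earlier results of these data known. A count of 0 allows a share of up to 7.32%, 10.3% and 11.1%. In the replicates the shares were 1.63% ± 1.41, 2.30% ± 3.98 and 0% in each (SD, n = 3). Whole embryos were used, and peaks present in few cells were not looked for.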

How the data were processed

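YL-1 ChIP-seq regions of 3 replicates in dm6 were used, as lists per replicate, pooled and after the IDR threshold. The signal value of each region, the −log10 of its q-value (not used in a result) and the summit offset in bp are as deposited by the authors. The sources used here do not name the aligner or the peak caller. Replicate and pooled lists held 30000 regions, so the strongest 5986 of each replicate were compared. Depth is unknown.

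Start sites came from Ensembl 115 and sequence from the RefSeq copy of Release 6, on X, 2L, 2R, 3L, 3R and 4. Overlap meant at least 1 bp. Shares have exact Clopper-Pearson 95% intervals, and the limit for a count of 0 is 3 counts. Of 379 list symbols 10 had no match and were not used here. One of these, Pex20, was dropped after its values were seen, because its older symbol is shared with an unrelated gene. Members and lists were chosen with earlier results of these data known.

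Named genes are the 12 strongest members, the 2 strongest with each of 12 motifs, the strongest of each arm and the 3 nearest inside and outside the limit. Further ones are the 3 strongest of each list, 5 of the 210 genes with 2 members, and YL-1. A gene this rule names is not reported here. On simulated data, 1000 of 1000 summits and 600 of 600 motif sites were recovered, and 300 of 300 overlaps equalled those of bedtools. Tools were Python 3.11.15 with scipy 1.17.1, pandas 2.3.3, numpy 2.4.6 and matplotlib 3.10.9. Alternatives were windows of 100 and 500 bp, stronger or fully replicated peaks, other numbers of top regions, RefSeq start sites, joined peaks, region midpoints, another motif window and each replicate left out. Restrictions by strand, TSS number, isolation and summit place were added after seeing the data.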

Additional observations from a re-analysis of the deposited data

How the results depend on the processing

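With a window of 100 bp, the share of isolated promoters with a peak was 13.1%, of other promoters 38.7%, the signal ratio to other peaks 1.09, the summit median 3 bp, and the DRE, Motif 1 and TATA box shares 19.7%, 16.0% and 2.01%. With 500 bp, the isolated share was 19.8%, the signal ratios to other, shared and internal peaks 0.991, 0.887 and 1.06, the summit median 48 bp and the motif shares 17.9%, 14.1% and 2.66%. Above the median signal, 1357 members were left, the shares were 9.99% and 40.3%, the ratios 0.935, 0.897 and 0.967, and 96.5% were in all 3 replicates. For peaks in all 3 replicates, the shares were 13.0% and 48.6%, the ratios 0.957, 0.863 and 1.02, DRE 20% and the TATA box 2.09%. Leaving out each replicate meant keeping only IDR peaks found in both others. The shares were then 14.3% to 14.6% and 50.2% to 52.7%, and the ratios 0.947 to 0.980, 0.847 to 0.858 and 1.02 (1.015 to 1.019). DRE was at 19.2% to 19.99%, Motif 1 at 14.5% to 15.03% and the TATA box at 1.98% to 2.28%. The ratio to all other peaks therefore lay below 1 under 4 kinds of setting and, at 0.999, when overlapping peaks were counted once. The cause was not tested. That last setting gave ratios of 0.795 and 1.01 to shared and internal peaks and 70.8% in all 3 replicates. The motif window of 100 bp on each side gave 16.8% for DRE and 13.4% for Motif 1. With 0.5 or 2 times as many top regions, 38.8% and 96.9% of members were in all 3 replicates. Genes with 1 TSS had a summit median of 18.5 bp, isolated promoters a TATA box share of 1.93%, and members with a central summit were in all 3 replicates in 68.0% of cases. The number of members was 2186 and 2459 with windows of 100 and 500 bp, 2011 for peaks in all 3 replicates, 2169 to 2219 with a replicate left out and 2256 with overlapping peaks counted once, against 2694. Of the values of the main results other than the number of members, 58 moved by more than the spread between replicates and 43 did not. Of those of single motifs and lists, 96 moved by more and 103 did not. No paired analysis was possible because there is 1 group. Without read counts, no limit from depth can be given.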
